A study of Homo sapiens with 12 samples.

Results

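Messenger RNAs of selenoproteins were followed in RNA precipitated with eIF4E, the protein that holds the cap at the 5' end of a messenger RNA and recruits it to the ribosome. The set held 10 genes, chosen by gene name from the array's annotation, and 9 of them had a probe set (1 each), of 11963 genes that did. SELENOS had no probe set annotated to it alone and was not analysed here. The family was singled out with the eIF4E against IgG differences of all genes already known, so for its members that contrast is described without a test. The irradiation contrasts are tested.

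The cells were MDA-MB-231, an established human triple-negative breast cancer line, so all values describe 1 line. The 4 groups of 3 arrays were eIF4E precipitates of cells collected 6 h after 2 Gy of X-rays, eIF4E precipitates of untreated cells, IgG precipitates of irradiated cells, and IgG precipitates of untreated cells. IgG is a non-specific antibody that measures the background of the procedure. The series' design text calls the 3 replicates biological, and nothing in the labels says which arrays share a culture.

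Selenoproteins contain selenocysteine, an amino acid inserted at a UGA codon that would otherwise end translation. Decoding needs a hairpin in the 3' untranslated region of the mRNA, the SECIS element, together with the protein SECISBP2 that binds it, the elongation factor EEFSEC, and selenophosphate made by SEPHS2, which is itself a selenoprotein. Most members are oxidoreductases with selenocysteine in the active site. Glutathione and thioredoxin systems that depend on them are known to clear peroxides, including those formed after irradiation.

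Since eIF4E binds at the cap, the bases around the annotated transcription starts are shown for the members at both ends of the antibody contrast, SELENOW and GPX4 on the one side and SEPHS2 and TXNRD1 on the other. They come from RefSeq (GRCh38.p14), in which all 10 genes matched. The 10 bases before the start are in lower case and the first 20 of the transcript in capitals, written 5′ to 3′. The annotated start may differ from the cap site used in these cells.
SELENOW, chr19:47778693-47778722, plus strand: ttcccgccgcACTCGCGCAGACCTAGCGCG
GPX4, the first of 3 annotated starts, chr19:1103984-1104013, plus strand: acgcgcgtccATTGGTCGGCTGGACGAGGG
SEPHS2, chr16:30445855-30445884, minus strand: ctcctctatcAGGAAGATTGTGCATGCCGT
TXNRD1, upstream start, chr12:104215769-104215798, plus strand: cggctccgtcAGTTCCCACAGGGCCTTGTG
TXNRD1, downstream start, chr12:104287022-104287051, plus strand: agttttcttcACTCCGGCATTTGCAGCAGA

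Of the 14 annotated starts of the 10 genes, 0 began with C followed by at least 4 further pyrimidines, the form of a terminal oligopyrimidine (TOP) start, which was searched on the transcribed strand. The same form stood at 4.07% of the 35116 annotated starts of all genes and at 5.36% of the 9089 starts of genes tested here. A count of 0 in 14 lies near either background. Among the sequences shown, every one began with A. Starts not shown also began with G: the second start of GPX4, both starts of SELENOF, and those of SELENOT, SELENOP and MSRB1. The first 50 transcribed bases held 70.0% G and C in SELENOW and 76.0%, 72.0% and 72.0% at the 3 starts of GPX4. They held 58.0% in SEPHS2 and 66.0% and 60% at the TXNRD1 starts, beside a median of 66.0% over the starts of genes tested here. Members between these ends did not follow that order, with 44.0% and 74.0% at the SELENOF starts, 58.0% in SELENOT, 64% in GPX1 and 70.0% in MSRB1.

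On the arrays as a whole, control probe sets were apart by antibody. Signal of the Alu repeat probe set was 13482 to 18476 with eIF4E and 36876 to 53246 with IgG, and the actin 3'/5' ratio was 1.33 to 1.53 with eIF4E and 2.96 to 5.38 with IgG. Poly-A control transcripts had a signal of 13.8 to 24.1 with eIF4E and 520 to 1266 with IgG. These measures divide the arrays just as the antibody does and so move with every member that is apart by antibody, and their part in the differences below was not tested. Hybridization controls, which are added in a fixed amount to the labelled RNA, were 0.158 times as bright on eIF4E arrays as on IgG arrays. Each array is scaled to the same mean, so a signal is relative to the other RNAs of that array. Less of a messenger cannot be told apart from more of the other RNAs, and amounts per cell cannot be read from these signals. Median signal over probe sets of liver, leukocyte and neuron or muscle genes, taken as not expressed, was 6.09 to 23.4 per array, and MB was bright enough among them to be tested. Of 8 mesenchymal markers of these cells, 7 were bright enough to be tested and SPARC was not. The luminal markers ESR1, PGR, FOXA1 and CDH1 were also too dim, whereas GATA3, KRT19 and EPCAM were not.

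Relative to IgG, 6 of the 8 selenoprotein mRNAs bright enough to be tested had higher signals with eIF4E, 1 had a lower signal and 1 lay between. The order ran from SELENOW (6.23-fold) and GPX4 (4.03-fold) through SELENOT, GPX1, MSRB1 and SELENOF (1.96- to 2.58-fold) to SEPHS2 (0.934-fold) and TXNRD1 (0.520-fold), averaged over irradiated and untreated cells. The median log2 difference of the 8 was 1.15, beside -0.07 over all 7178 genes tested. All 6 eIF4E arrays lay above all 6 IgG arrays in 6 of the 8, which was so in 23.1% of genes tested, and below them in 1 of the 8, which was so in 26.7%. On a scale set by the hybridization controls all 8 were above 0, as were 100% of genes tested. TXNRD1 (1.72) and SEPHS2 (2.56) lay below the median of all genes on that scale, 2.59. Since these controls join the RNA after labelling, no value on that scale shows how much RNA an antibody recovered. The poly-A controls were 0.0219 times as bright on eIF4E arrays as on IgG arrays, and a scale set by them was not run.

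**Figure D1:**
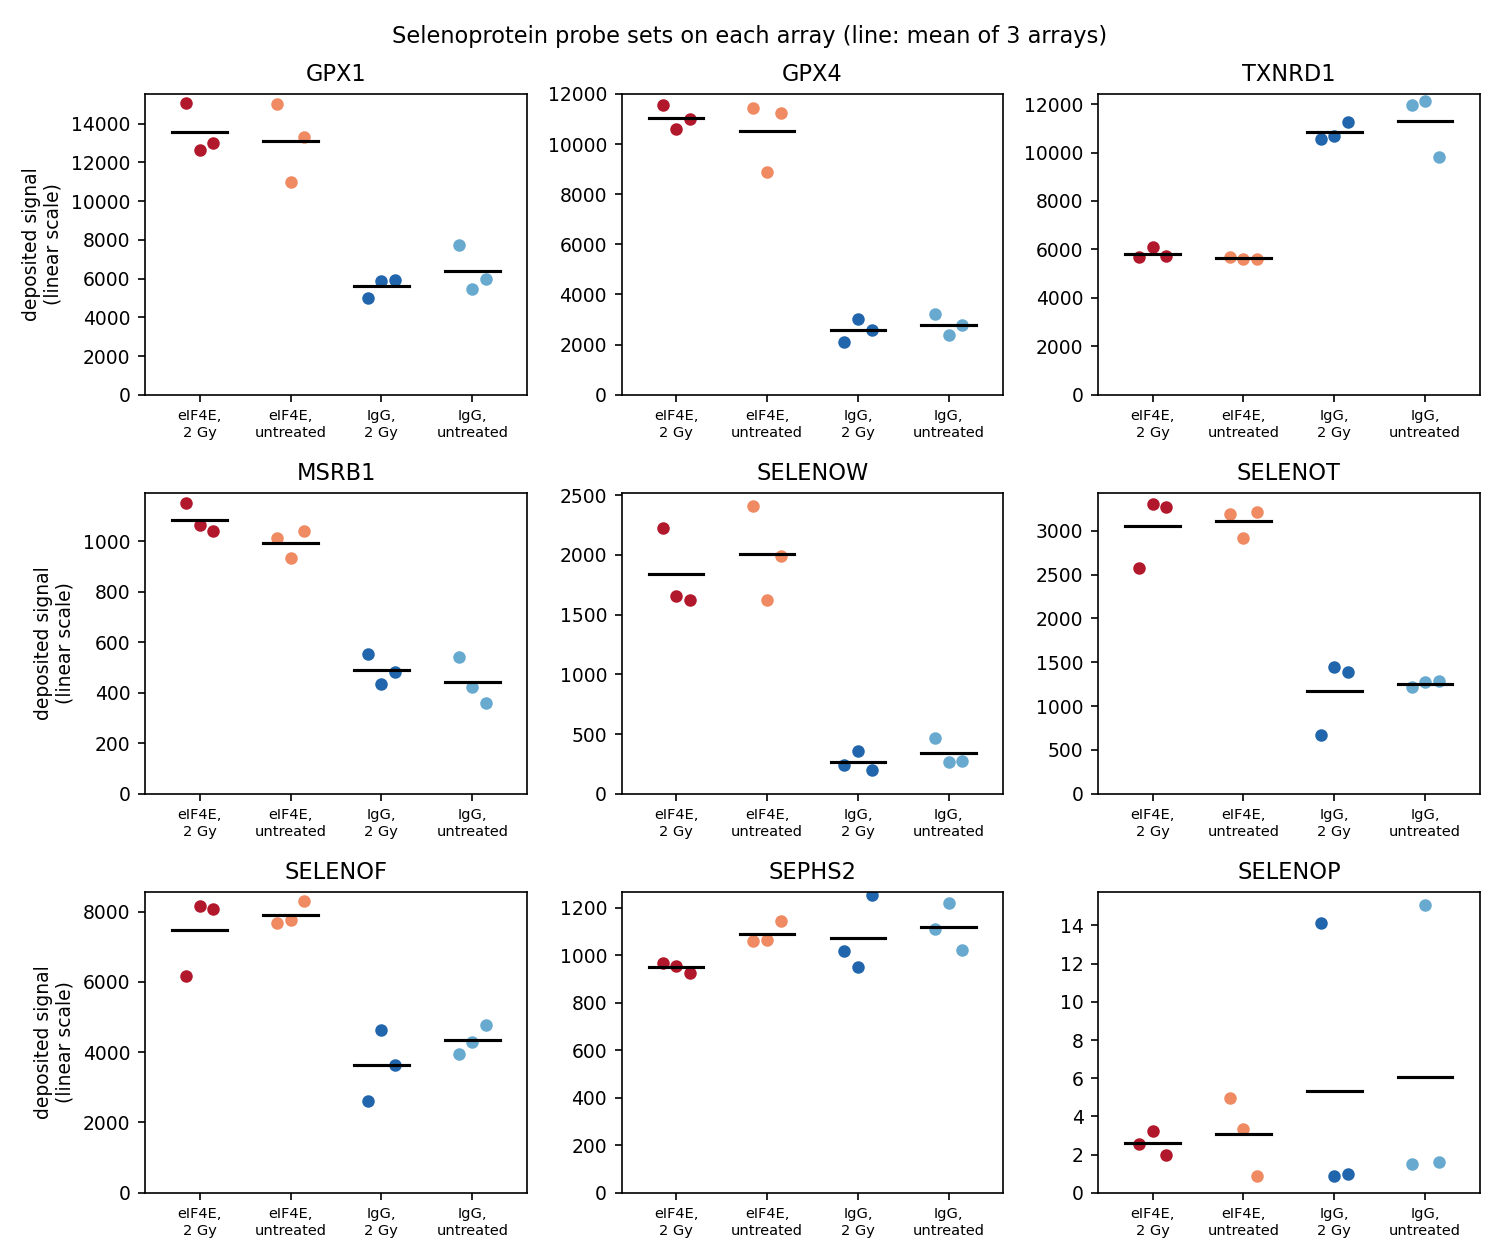
Deposited signal (linear scale, arbitrary units, axes from 0) of the 9 selenoprotein probe sets on each array, by group, with points for replicates 1 to 3 from left to right and a line for the mean of 3 arrays. The eIF4E arrays lie above the IgG arrays in GPX1, GPX4, MSRB1, SELENOW, SELENOT and SELENOF and below them in TXNRD1, and SELENOP stays at 15.1 or less.

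Glutathione peroxidases reduce peroxides with glutathione. GPX1, the cytosolic enzyme that reduces hydrogen peroxide, had signals of 15048, 12650 and 12974 in irradiated and 15006, 10998 and 13295 in untreated eIF4E precipitates, against 4978, 5883 and 5949 in irradiated and 7738, 5456 and 5966 in untreated IgG precipitates. The lowest eIF4E array was well above the highest IgG array, and the difference was 1.16 ± 0.11 (log2, SE, 6 arrays a side). GPX4, which reduces lipid peroxides inside membranes and protects against ferroptosis, had 11543, 10591 and 10991 in irradiated and 11447, 8890 and 11238 in untreated eIF4E precipitates, against 2102, 3016 and 2596 in irradiated and 3209, 2386 and 2767 in untreated IgG precipitates. No array crossed between the antibodies. Its difference of 2.01 ± 0.11 was higher than that of 99.0% of all genes tested, whereas that of GPX1 exceeded 91.1% of them.

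TXNRD1, the cytosolic thioredoxin reductase that returns electrons from NADPH to thioredoxin, was lower with eIF4E relative to the other RNAs of the array. On the scale set by the hybridization controls it was above 0 (1.72), as were 100% of genes tested, and below their median of 2.59. It had 5680, 6080 and 5712 in irradiated and 5698, 5612 and 5616 in untreated eIF4E precipitates, against 10543, 10702 and 11240 in irradiated and 11979, 12112 and 9821 in untreated IgG precipitates. The eIF4E arrays were close to one another and all lay below the IgG arrays, at a difference of -0.94 ± 0.08 (log2, SE). That difference exceeded 15.6% of the genes tested.

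MSRB1 reduces oxidised methionine in proteins. Its signals were 1154, 1066 and 1040 in irradiated and 1012, 935 and 1040 in untreated eIF4E precipitates, against 555, 435 and 482 in irradiated and 543, 423 and 358 in untreated IgG precipitates. The antibodies did not overlap, and the difference was 1.15 ± 0.11, nearly that of GPX1.

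SELENOW, a small thioredoxin-fold protein abundant in muscle, was furthest above its IgG level among the 8. It had 2223, 1659 and 1625 in irradiated and 2411, 1624 and 1991 in untreated eIF4E precipitates, against 239, 357 and 201 in irradiated and 467, 269 and 277.5 in untreated IgG precipitates. Even its brightest IgG array was well below the dimmest eIF4E array, and all 6 IgG values stood above the median of genes taken as not expressed. The difference of 2.64 ± 0.17 was higher than that of 99.8% of the genes tested. Replicate 1, whose hybridization controls were brightest in every group, gave the highest SELENOW signal in irradiated and untreated eIF4E precipitates and in untreated IgG precipitates, and the difference without the first replicates was 2.60.

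SELENOT and SELENOF reside in the endoplasmic reticulum, where SELENOF binds the glucosyltransferase that inspects folding glycoproteins. SELENOT had 2580, 3305 and 3267 in irradiated and 3194, 2917 and 3214 in untreated eIF4E precipitates, against 667, 1445 and 1392 in irradiated and 1214, 1272 and 1283 in untreated IgG precipitates. Its difference was 1.37 ± 0.15. The 667 of irradiated IgG replicate 1 was far from the other IgG values, and without that array the difference in irradiated cells was 1.09 in place of 1.44. SELENOF had 6156, 8168 and 8084 in irradiated and 7666, 7772 and 8289 in untreated eIF4E precipitates, against 2608, 4640 and 3634 in irradiated and 3943, 4291 and 4772 in untreated IgG precipitates, a difference of 0.97 ± 0.13. In irradiated cells, replicate 1 was the lowest array for both genes with either antibody.

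SEPHS2 makes the selenium donor for selenocysteine. It had 969, 956 and 926 in irradiated and 1062, 1066 and 1143 in untreated eIF4E precipitates, against 1017, 951 and 1253 in irradiated and 1112, 1223 and 1023 in untreated IgG precipitates. The antibodies overlapped, and the difference was -0.10 ± 0.10, with 48.9% of genes below it. Its sign turned when arrays were centred on their median (0.012). SELENOP, the secreted protein that carries selenium from the liver to other tissues, had 2.57, 3.24 and 1.96 in irradiated and 4.94, 3.35 and 0.888 in untreated eIF4E precipitates, against 14.1, 0.882 and 0.978 in irradiated and 1.51, 15.1 and 1.61 in untreated IgG precipitates. Its highest value lay under 23.4, the highest array median of genes taken as not expressed, and SELENOP entered no test.

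The contrast had the same layout in irradiated and in untreated cells. The median of the 8 genes was 1.20 in irradiated and 1.10 in untreated cells, beside -0.06 and -0.08 over all genes tested. In irradiated cells 6 of the 8 had all 3 eIF4E arrays above all 3 IgG arrays (29.0% of genes tested), and in untreated cells 6 of the 8 did (30.6%). SELENOW differed by 2.74 ± 0.23 in irradiated and 2.54 ± 0.23 in untreated cells, GPX4 by 2.11 ± 0.16 and 1.91 ± 0.16, and TXNRD1 by -0.89 ± 0.12 and -0.99 ± 0.12 (log2, SE, 3 arrays a side).

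**Figure D2:**
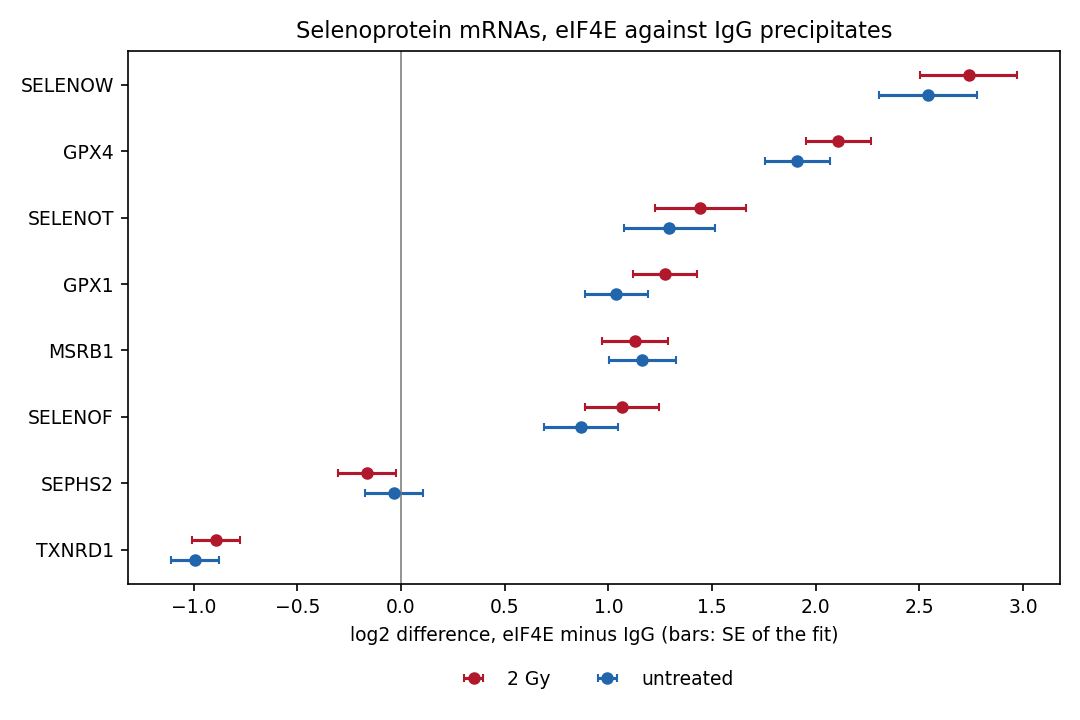
Log2 difference of eIF4E minus IgG precipitates for the 8 selenoprotein genes tested, in irradiated (red, upper) and untreated cells (blue, lower), with bars for the SE of the fit. SELENOW (2.74 and 2.54) and GPX4 (2.11 and 1.91) lie furthest to the right, SEPHS2 lies near 0 and TXNRD1 (-0.89 and -0.99) to the left.

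Over all genes, the antibody difference went with the span of the gene, counted from the RefSeq annotation with exons and introns. Across 7177 genes the Spearman correlation of span and difference was -0.47, given as a description since genes share arrays and are not independent. Median differences of genes in 4 classes of equal number, from short to long, were 0.48, 0.08, -0.25 and -0.66. GPX1 (1178 bases), SEPHS2 (2244), GPX4 (2786), MSRB1 (4971) and SELENOW (5980) were in the shortest class, SELENOT (27116) in the second, SELENOF (52133) in the third and TXNRD1 (134529) in the longest.

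Set beside its own class, SELENOW was higher than 99.5% of genes, GPX4 than 96.9%, SELENOT than 95.3%, SELENOF than 92.6%, GPX1 than 78.2% and MSRB1 than 77.7%. Over all genes tested these shares were 99.8%, 99.0%, 94.5%, 86.9%, 91.1% and 90.8%, in the same order. GPX1 and MSRB1 thus stood lower in their class than among all genes, as did GPX4 and SELENOW by less. SELENOF and SELENOT stood higher. TXNRD1 was higher than 33.4% of the longest class and SEPHS2 than 23.3% of the shortest. By these classes TXNRD1 was less apart from genes of its span than from all genes, and SEPHS2 lay lower among genes of its span. The span of TXNRD1 is that of the whole annotated gene, with both starts shown above. From the downstream start it would be shorter, and its class by that start was not examined. The part of span in the members' differences was not tested.

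**Figure D3:**
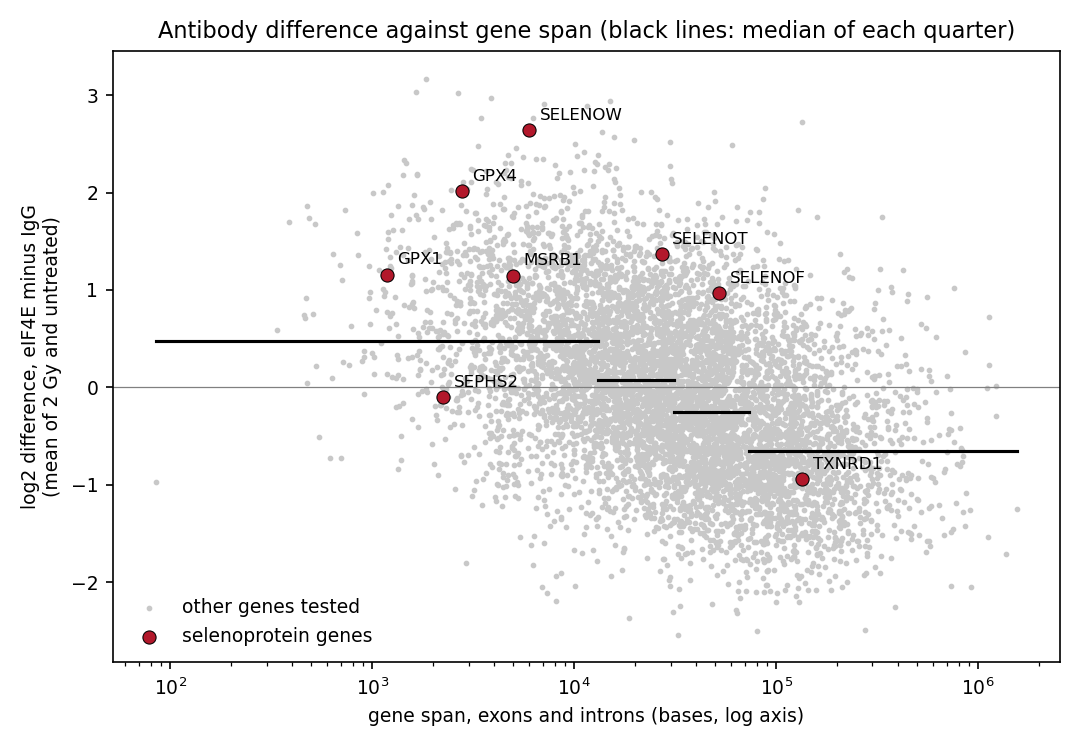
Log2 difference of eIF4E minus IgG precipitates (mean of irradiated and untreated cells) against gene span in bases (log axis) for 7177 genes, with the 8 selenoprotein genes in red and black lines at the median of each of 4 span classes. The medians step down from 0.48 to -0.66, SELENOW (2.64) and GPX4 (2.01) lie far above the line of the shortest class, and TXNRD1 (-0.94) lies near that of the longest.

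The irradiation contrasts ask whether a selenoprotein mRNA was recovered differently 6 h after 2 Gy. In eIF4E precipitates limma called 0 of the 8 genes at an adjusted p of 0.05, and 0 (0%) of all 7178 genes, with 82 genes and 0 of the 8 under an unadjusted 0.05. SEPHS2 was furthest from 0, at -0.19 (95% interval -0.49 to 0.10, limma adjusted p = 1.00), with a mean signal of 951 ± 22.3 in irradiated and 1090 ± 45.7 in untreated cells (SD, n = 3). MSRB1 was at 0.12 (-0.22 to 0.46), GPX4 at 0.08 (-0.25 to 0.41), GPX1 at 0.06 (-0.27 to 0.38) and TXNRD1 at 0.05 (-0.20 to 0.29). SELENOT (-0.03), SELENOF (-0.09) and SELENOW (-0.13, -0.62 to 0.37) were on the other side of 0. The 3 irradiated and 3 untreated arrays did not overlap in 2 of the 8 genes, SEPHS2 (lower) and MSRB1 (higher, although the lowest irradiated and the highest untreated array both read 1040), and in 9.40% of all genes tested.

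In IgG precipitates 0 of the 8 genes passed (smallest limma adjusted p = 0.734, for SELENOF), as did 0 (0%) of all genes, with 475 genes and 0 of the 8 under an unadjusted 0.05. Values were below 0 for 7 of the 8 and for 3543 of the 7178 genes tested, with a median of -0.15 beside 0.0045 over all genes. They reached from SELENOW at -0.32 (-0.82 to 0.17) and SELENOF at -0.29 (-0.67 to 0.08) to MSRB1 at 0.16 (-0.18 to 0.50). Arrays of irradiated and untreated cells overlapped in each of the 8, while 8.68% of all genes did not overlap.

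The difference of both irradiation effects, eIF4E minus IgG, asks whether the eIF4E precipitates moved apart from the background. By limma it passed in 0 of the 8 genes and in 0 (0%) of all genes, with an adjusted p of 0.999 for each of the 8, and 216 genes and 0 of the 8 were under an unadjusted 0.05. GPX1 was highest, at 0.23 (-0.23 to 0.69), and SEPHS2 lowest, at -0.13 (-0.55 to 0.29). All 8 intervals included 0, and their upper bounds ran from 0.29 (SEPHS2) to 0.90 (SELENOW), and their lower bounds from -0.55 (SEPHS2) to -0.23 (GPX1), so effects between a gene's own bounds are not excluded by these arrays.

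**Figure D4:**
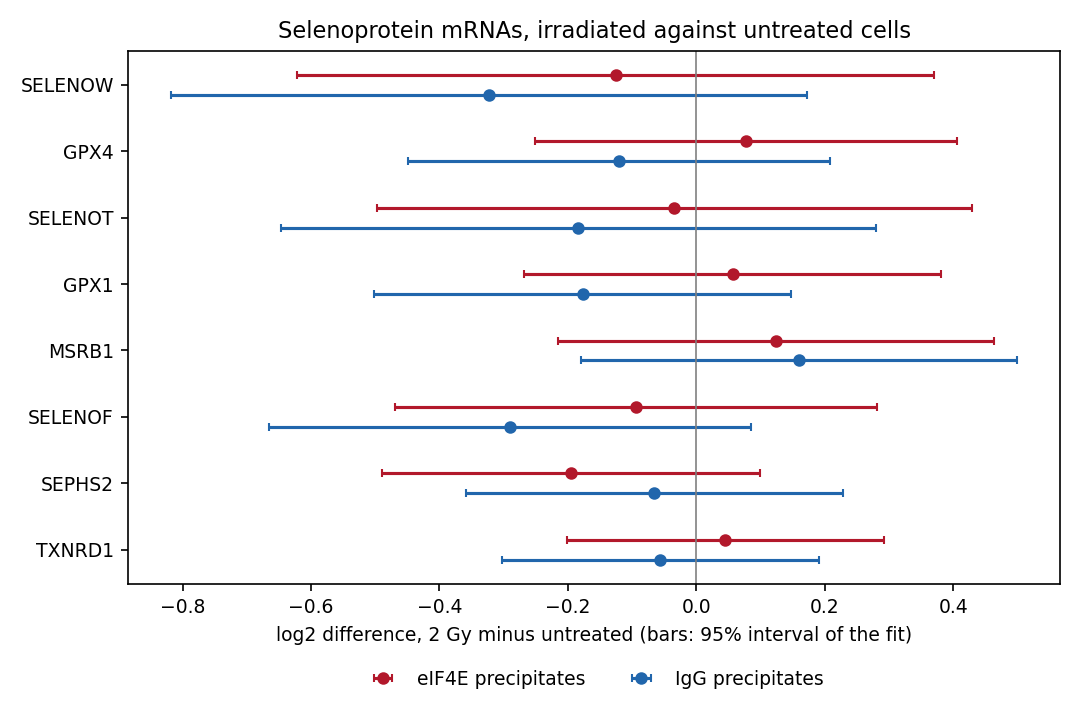
Log2 difference of irradiated minus untreated cells for the 8 selenoprotein genes tested, in eIF4E (red, upper) and IgG precipitates (blue, lower), with bars for the 95% interval of the fit. Every interval crosses 0, and the points lie between -0.32 (SELENOW, IgG) and 0.16 (MSRB1, IgG).

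Other selenoprotein genes on the array numbered 6, and 2 were bright enough to be tested. GPX3, the secreted glutathione peroxidase, had a median signal of 2850 (2136 to 3287) on the 6 eIF4E arrays and 550 (437 to 826) on the 6 IgG arrays, a difference of 2.21 ± 0.15, and its second probe set differed by 2.63. TXNRD2, the mitochondrial thioredoxin reductase, had 274 (258 to 344) on the eIF4E arrays and 111 (57.0 to 138) on the IgG arrays, a difference of 1.37 ± 0.19, and a dim second probe set was at 0.16. By their brightest probe sets both had all 6 eIF4E arrays above all 6 IgG arrays, while TXNRD1 had them below. The intestinal peroxidase GPX2 and the deiodinases DIO1, DIO2 and DIO3, which activate or inactivate thyroid hormone, were under the filter.

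Genes of selenocysteine synthesis and decoding lay on both sides of 0. Of 11 tested, 4 were above 0 and 7 below (median -0.14), while 46.5% of all genes tested were above 0. The 6 eIF4E arrays were above the IgG arrays in 1 of the 11 and below in 4 of the 11, beside 23.1% and 26.7% of all genes tested. TRNAU1AP, which binds the selenocysteine transfer RNA, was at 1.09 ± 0.11, and SECISBP2 at 0.32 ± 0.12. CELF1 (-2.20 ± 0.10) and NCL (-1.70 ± 0.09), which are RNA-binding proteins with many targets, were lowest by their brightest probe sets. The dimmer probe sets of CELF1 were at -1.62, -0.96 and -0.23. SEPHS1, the paralogue of SEPHS2 without selenocysteine, was at 0.21 ± 0.10 by its brightest probe set and at -0.64 and 1.07 by its other probe sets. The receptor LRP8, which takes up SELENOP, was at -0.91 ± 0.14.

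Relatives and partners of the members were mixed. All 4 tested genes of related enzymes without selenocysteine were above 0 (median 0.97), while 46.5% of all genes tested were. The 6 eIF4E arrays lay above the 6 IgG arrays in 3 of the 4, beside 23.1% of all genes tested, and overlapped them in GPX7. GPX7 was at 0.89 ± 0.25, GSR at 0.95 ± 0.17 and MSRA at 0.98 ± 0.09. MSRB2, the mitochondrial relative of MSRB1, was at 1.56 ± 0.10 (0.08 by a second probe set). Of 15 thioredoxin and glutathione partners 11 were above 0 (median 0.41), beside the same 46.5% of all genes. GLRX was at 1.61 ± 0.11 and PRDX2, whose dimmer probe sets went both ways, at 1.47 ± 0.09. TXNIP, which binds and inhibits thioredoxin, was at -0.99 ± 0.12 and PRDX6 at -0.21 ± 0.09 (0.89 by its other probe set). The thioredoxin gene TXN itself, the substrate of TXNRD1, was at 0.41 ± 0.10 (-0.79 by a dimmer probe set).

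Of 9 genes of endoplasmic reticulum quality control, 3 were above 0 and 6 below (median -0.69), while 46.5% of all genes tested were above 0. DERL2 (0.93 ± 0.11) and UFD1 (0.85 ± 0.08) were highest and SEL1L (-1.78 ± 0.15) and UBXN4 (-1.49 ± 0.10) lowest by their brightest probe sets. Dimmer probe sets were at -0.80 and -0.25 for UBXN4 and at -0.96, -0.80 and 0.02 for SEL1L. UGGT1, the glucosyltransferase that SELENOF binds, was at -0.75 ± 0.18, opposite to SELENOF. None of the genes in these lists passed an irradiation contrast or the difference of both.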

How the data were processed

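RNA of 12 precipitates was hybridised to 1 array each, and the deposited table holds a signal intensity per probe set on a linear scale, made by the authors with MAS5, per the submitters' processing notes (without a version). Every array had a trimmed mean of 500.2, with 2% left out at each end. Of 22277 probe sets, 62 were controls, 19064 had 1 gene symbol, 1043 several and 2108 none. Symbols follow RefSeq gene identifiers.

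Each gene was taken by its brightest probe set (_x_at only where alone), and genes under the 40th percentile of mean log2 signal (57.4) were left out, leaving 7178. Values were log2(signal + 16), which understates changes of dim genes, fitted with limma 3.58.1 in R 4.3.3 (4 group means, variance trend) and adjusted by Benjamini-Hochberg over all 7178. Irradiated eIF4E arrays correlated with untreated ones of the same replicate number at 0.374, 0.208 and 0.181 in their deviations from group means, so the numbers were taken to pair these arrays, on the data alone. The values reported come from the fit without a replicate block, so intervals and p-values in eIF4E precipitates leave this pairing out. The block, an alternative, was laid over all 12 arrays, and a fit that pairs only the eIF4E arrays was not run. In each other pair of groups at least 1 number was under 0.1, although replicate 1 correlated at 0.0956 to 0.303 in those pairs. The reported intervals and p-values of all contrasts leave out whatever arrays of equal replicate number share.

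Members and lists were chosen with earlier results of these data known. Every member was named, with up to 2 genes at either end of each list, and TXN, UGGT1 and SEPHS1 were added for their ties to members after their values were seen. The number of arrays limits the precision.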

Additional observations from a re-analysis of the deposited data

How the results depend on the processing

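The 8 genes' median antibody difference stayed between 1.11 and 1.26 averaged over treatments, 1.13 and 1.29 in irradiated and 1.01 and 1.25 in untreated cells over pseudocounts of 1 and 64, no filter, a 60th percentile filter, quantile normalization, median centring, no trend, array weights, fits of only those groups, the replicate block, means over probe sets, single probe sets, each array left out and (chosen after seeing the data) no first replicates. The filters, no trend, fits of only those groups and the balanced replicate block could not change a member's own antibody difference. Nor could probe set means or single probe sets, since each member has 1 probe set. Median centring moved all genes by 0.11 and put SEPHS2 at 0.012, or 0.11 in untreated cells, where leaving out 1 array gave -0.096 to 0.031 (0.031 without untreated IgG replicate 2). On a scale set by the hybridization controls, also chosen after seeing the data, all genes moved by 2.66: the median was 3.81 over both treatments, 3.82 in irradiated and 3.81 in untreated cells, TXNRD1 was at 1.72, 1.72 and 1.71 and SEPHS2 at 2.56, 2.45 and 2.67. No member passed an irradiation contrast or the difference of both under any alternative run (smallest limma adjusted p = 0.286 in eIF4E precipitates, 0.323 in IgG precipitates and 0.878 for the difference). Over all genes, 2 passed in eIF4E precipitates with array weights, and 1 in IgG precipitates with a pseudocount of 1, with probe set means, with no trend and without untreated IgG replicate 1 (0 to 1 with 1 array left out). With the replicate block the median was 1.15, as the balanced design fixes, and the block changed no call. The cause of these shifts was not tested.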
